A study of Mus musculus with 12 samples.

Results

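The 10 genes described here encode receptors for neuropeptides: Npy1r, Npy2r and Npy5r for neuropeptide Y (NPY), Cckar and Cckbr for cholecystokinin (CCK), Tacr1 and Tacr3 for tachykinins, Sstr1 and Sstr2 for somatostatin, and Grpr for gastrin-releasing peptide. They were taken by gene symbol from the table of 47729 genes, matched through Ensembl identifiers to the GENCODE M21 annotation, and the rule itself uses no expression value, although the set was proposed with earlier results of these data known. The table holds amygdala mRNA of female, age-matched adult mice of the inbred strain C57/BL6, with 1 library per mouse from tissue of both sides. The 11 mice with a labelled anxiety state comprised 3 less anxious, 4 anxious and 4 more anxious animals. No engineered allele or drug is named for them, and before rapid decapitation all had been tested for avoidance of open arms (elevated plus maze, EPM), avoidance of light (LD box) and social approach (social interaction test, SIT). The study set these states from tertiles of the second principal component (PC2) of gene expression in the same libraries, so a difference between the groups is not independent of expression. The behavior measures came from separate assays. They did not follow the labels in every mouse: mouse 6, labelled more anxious, had the most time in the light (46.6%), the most distance in the light (41.9%) and the most open-arm time (29.2%) of the 11 mice. In a PCA of the 11 libraries run here, its PC2 score of 0.324 lay above those of the anxious mice 1 (-4.92) and 11 (-2.98), and the other 3 more anxious mice lay between -25.8 and -13.4. Mouse 5 has no labelled state and the study left it out as an outlier; it enters no value below unless named. Each library holds all cells of the dissected block, so fewer cells of a type and less RNA per cell cannot be told apart.

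All 10 receptors are G protein-coupled and span the cell membrane. NPY and somatostatin receptors couple mainly to inhibitory G proteins, which lower cyclic AMP and open potassium channels, while the CCK, tachykinin and gastrin-releasing peptide receptors couple mainly to the phospholipase C pathway and raise calcium. In the amygdala, a brain region that shapes fear and avoidance, NPY is known for reducing anxiety-like behavior, and CCK acting at its B receptor and substance P acting at the tachykinin NK1 receptor are known for increasing it.

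The promoters of the 2 pairs of receptors whose levels ran most closely together or apart over the mice, described further below, are shown here. RefSeq's window holds the 250 bases before its own start of each gene, and that start can differ from the GENCODE start given below. The last 141 bases of the Tacr1 window and the last 34 of the Npy5r window lie within the GENCODE span of the gene and are not printed, the Sstr2 window ends 15 bases before that span, and the Tacr3 window ends at it. Capitals mark the letters of the cyclic AMP response element (CRE) half-site, TGACG or its reverse complement CGTCA, and of the GC box, GGGCGG or CCGCCC. The sequences are from RefSeq (GRCm38.p6) and read 5′ to 3′ on the strand of the gene.
Tacr1 promoter, plus strand, chr6:82402225-82402333: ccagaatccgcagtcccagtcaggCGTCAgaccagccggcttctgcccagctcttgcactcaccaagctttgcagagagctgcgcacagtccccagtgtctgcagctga
Tacr3 promoter, plus strand, chr3:134828757-134829006: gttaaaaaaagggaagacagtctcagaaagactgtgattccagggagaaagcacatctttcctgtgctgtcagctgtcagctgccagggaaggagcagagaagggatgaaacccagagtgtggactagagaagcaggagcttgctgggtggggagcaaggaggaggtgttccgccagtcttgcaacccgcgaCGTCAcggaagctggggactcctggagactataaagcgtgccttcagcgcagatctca
Npy5r promoter, minus strand, chr8:66688129-66688344: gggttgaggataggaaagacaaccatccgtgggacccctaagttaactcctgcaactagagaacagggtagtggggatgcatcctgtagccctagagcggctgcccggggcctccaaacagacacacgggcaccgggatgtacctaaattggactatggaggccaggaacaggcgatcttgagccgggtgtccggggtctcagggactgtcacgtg
Sstr2 promoter, plus strand, chr11:113619077-113619326: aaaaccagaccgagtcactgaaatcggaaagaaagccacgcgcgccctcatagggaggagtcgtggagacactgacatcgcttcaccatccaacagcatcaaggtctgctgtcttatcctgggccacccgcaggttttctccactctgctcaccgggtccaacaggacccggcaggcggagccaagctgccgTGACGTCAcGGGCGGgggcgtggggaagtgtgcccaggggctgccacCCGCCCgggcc
Of the 10 receptors, 8 had a promoter entry in that RefSeq table. The CRE half-site, present in 17.8% of all 32851 promoter windows of this length, was found in 4 of these 8 windows of 250 bases, with 1 each in Tacr1, Tacr3 and Grpr. Sstr2 held the full CRE, TGACGTCA, found in 1.55% of the windows, which contains both spellings of the half-site. Its window also held 2 GC boxes, a motif found in 32.7% of windows and otherwise only in Npy2r among the 8, and GC content there was 63.6%, above that of 80.0% of windows. Npy5r held neither the half-site nor a GC box. A TATA box (TATAAA or TTTATA, 12.4% of windows) lay in the Tacr3 window only among the 8, and a CCAAT box (CCAAT or ATTGG, 33.8% of windows) in those of Npy5r, Cckbr and Grpr. These matches are descriptions of letters on both strands and not evidence of binding.

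Depth ran from 31745630 to 45142355 estimated counts per mouse (median 36578626), and the values below are CPM, counts scaled to the library total, after TMM scaling, which corrects for differences in library composition. The receptors together made up 144.7 to 188.3 CPM per mouse, and 8 of the 10 had a mean of at least 1 CPM. Compared per kilobase of exon, Cckbr was the highest (17.98 ± 3.03 CPM per kb, SD, n = 11 mice). It was followed by Sstr2 (10.996 ± 2.62), Npy2r (9.61 ± 2.09), Npy1r (7.72 ± 0.946), Sstr1 (3.80 ± 1.26), Npy5r (2.10 ± 0.426), Tacr1 (1.88 ± 0.414) and Tacr3 (1.69 ± 0.411) on the same scale. Cckar, at 0.191 ± 0.108 CPM per kb, and Grpr, at 0.0755 ± 0.0295, were the lowest. Ranges over the mice overlapped between all neighbours in this order except Tacr3 and Cckar. Within single mice the order was firmer at some steps, since Cckbr was above Sstr2 and Npy1r above Sstr1 in 11 of 11 mice. Sstr2 exceeded Npy2r in only 7 mice, and Tacr1 exceeded Tacr3 in 7. Scaling by the longest transcript in place of merged exons exchanged the places of Npy5r and Tacr1.

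Each receptor family was led by 1 or 2 genes. Of the summed CPM per kb of the CCK receptors, Cckbr accounted for 99.0%. Npy2r, a largely presynaptic receptor, took 49.5% of the NPY receptor sum, Npy1r 39.7% and Npy5r 10.8%, while Npy4r and Npy6r were each under 0.05%. Among somatostatin receptors, Sstr2 took 48.2%, Sstr3 23.7% and Sstr1 16.6%. The tachykinin sum was shared by Tacr1, the NK1 receptor for substance P, with 49.9%, and Tacr3, the NK3 receptor for neurokinin B, with 45.05%. Grpr was the smallest of the bombesin receptors at 4.85%, against 67.8% for Nmbr, the neuromedin B receptor, and 27.4% for Brs3.

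The receptors differed in how much they varied among mice. The biological coefficient of variation in edgeR describes spread beyond counting noise, after the model's terms for group and first principal component. The method draws it toward the trend for genes of like abundance. It was 14.5% for both Npy1r and Cckbr, against trends of 15.6% and 14.0%. For Npy2r it was 19.7% against a trend of 15.0%, for Sstr1 31.0% against 20.9%, and for Cckar 49.2% against 33.4%. Npy5r, at 20.0% against 23.2%, and Grpr, at 30.7% against 43.3%, lay below the trend. Tacr1, Tacr3 and Sstr2 lay slightly above it. Grpr was counted with only 3 to 12 reads per mouse and Cckar with 6 to 50, so differences in these 2 genes were barely resolvable at this depth. Mouse 5 lay within the range of the other mice for 9 of the 10 receptors, and for Sstr1 its 4.78 CPM was just below their lowest value of 5.01 on the scale of all 12 mice.

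**Figure D1:**
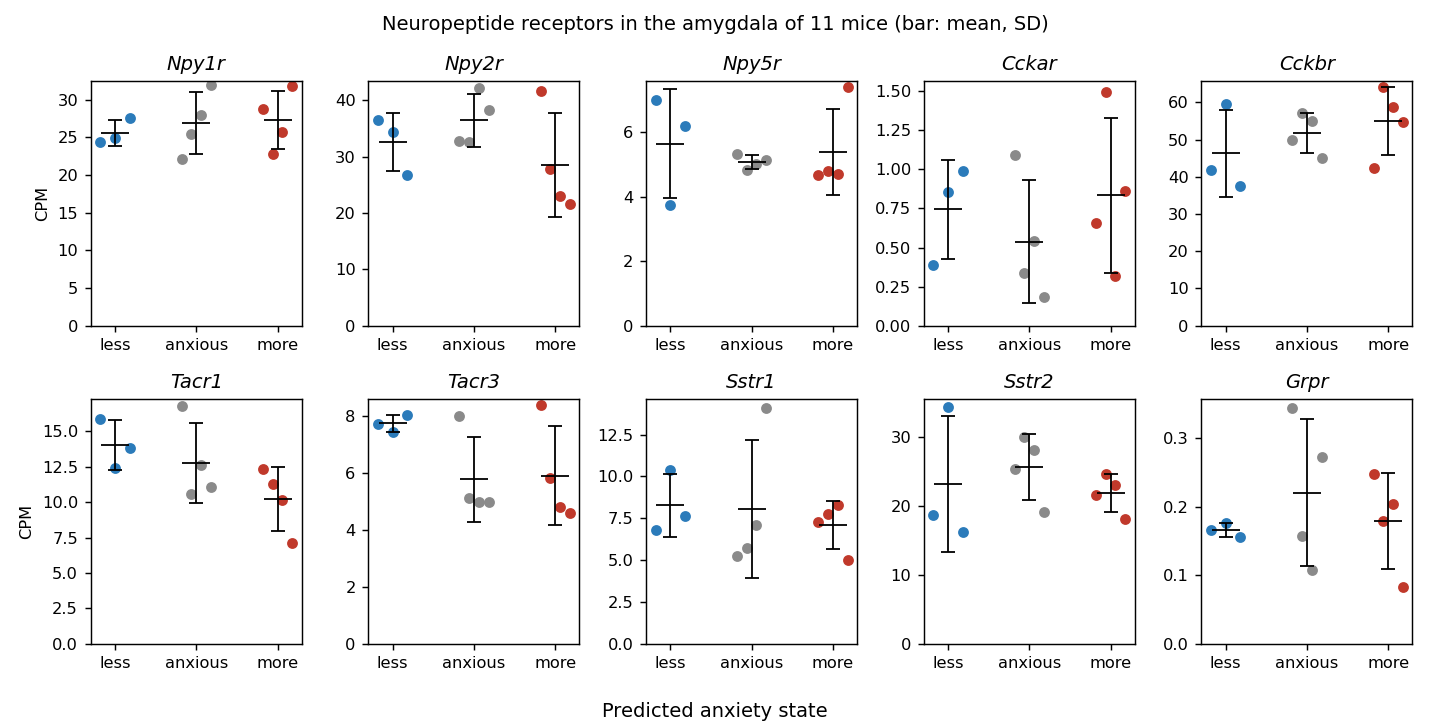
CPM (TMM-scaled) of each receptor on the vertical axis, by predicted anxiety state on the horizontal axis, with 1 point per mouse and bars for the mean and SD of 3 less anxious, 4 anxious and 4 more anxious mice. The groups overlap for every receptor except Tacr1 between less and more anxious mice, where the lowest less anxious value (12.4 CPM) and the highest more anxious value (12.3 CPM) nearly touch.

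The first comparison asked which receptors differ between mice of different anxiety state, with the first principal component as a covariate as in the study's model. No receptor passed the test. Across the 3 groups, edgeR's quasi-likelihood test called 0 of 10 receptors at an adjusted p under 0.05 (background 0.00742% of the 26963 genes tested) and found 0 with an unadjusted p under 0.05 (background 6.41%). DESeq2's likelihood ratio test of the same model called 0 as well (background 0.594% of the 34511 genes with a read). It gave no adjusted p for Cckar and Grpr, so neither could be called there. The 34511 genes also include others without an adjusted p. Between more and less anxious mice, 0 were called by edgeR (background 0.0445%) and 0 by DESeq2 (background 0.869%), which gave Grpr no adjusted p. An unadjusted edgeR p under 0.05 was found for 0 (background 8.81%), against 1 in DESeq2 (Tacr1, DESeq2 adjusted p = 0.404). The fitted value was positive for 4 receptors and negative for 6, with a median log2 difference of -0.079 compared with 0.0090 over all genes tested. For anxious against less anxious mice and more anxious against anxious mice, 0 were called and 0 had an unadjusted p under 0.05 (backgrounds 4.7% and 4.67% unadjusted, 0.00371% and 0.0% adjusted). Without mouse 6, edgeR called 0 of 10 between more and less anxious mice, and 1 (Tacr1) had an unadjusted p under 0.05.

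The tachykinin receptors had the largest negative values of the group comparison. Tacr1 (chr6:82402334-82560104, plus strand) was at 15.9, 12.4 and 13.8 CPM in less anxious mice, at 16.8, 10.6, 12.6 and 11.1 CPM in anxious mice, and at 12.3, 11.3, 10.1 and 7.11 CPM in more anxious mice. All 4 more anxious mice lay below all 3 less anxious mice, with the closest pair at 12.3 and 12.4 CPM, and anxious mouse 1 was higher than any other mouse. This was the only receptor of 10 whose less and more anxious values did not overlap (background 8.4% of genes, and 3.83% with the more anxious mice lower). The fitted log2 difference was -0.44 (SE 0.21, edgeR adjusted p = 0.568). Leaving out single mice moved it from -0.59, without mouse 7, to -0.28, without mouse 10, and 5 of these 11 fits had an unadjusted p under 0.05, among them the fit without mouse 6 (log2 difference -0.50, SE 0.22, edgeR adjusted p = 0.481).

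Tacr3 (chr3:134829007-134934579, plus strand) was at 7.75, 7.47 and 8.06 CPM in the less anxious group, at 8.03, 5.15, 5.01 and 5.00 CPM in the anxious group and at 8.40, 5.84, 4.80 and 4.60 CPM in the more anxious group. The less anxious mice were tightly grouped, and 1 mouse in each of the other groups (mouse 1 and mouse 2) reached their level while the rest were lower. The log2 difference between more and less anxious mice was -0.39 (SE 0.23, edgeR adjusted p = 0.697), and it ranged from -0.60 without mouse 2 to -0.27 without mouse 10. Of the 11 edgeR fits without 1 of the mice, 2 had an unadjusted p under 0.05.

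Of the NPY receptors, Npy1r (chr8:66697192-66706792, plus strand), a mainly postsynaptic receptor, was the steadiest. It lay at 24.4, 24.9 and 27.5 CPM in less anxious, 22.2, 25.4, 28.0 and 32.0 CPM in anxious and 28.7, 22.8, 25.7 and 31.8 CPM in more anxious mice. The log2 difference of 0.11 (SE 0.14, edgeR adjusted p = 0.893) was smaller than the spread between mice. Npy2r (chr3:82538383-82548084, minus strand) was at 36.6, 34.5 and 26.7 CPM in less anxious, 32.8, 32.6, 42.3 and 38.3 CPM in anxious and 41.7, 27.8, 22.9 and 21.5 CPM in more anxious mice. The more anxious mice were the most uneven, with mouse 2 near the top of all mice and mice 9 and 10 at the bottom. Its log2 difference of -0.24 (SE 0.21, edgeR adjusted p = 0.817) became -0.46 without mouse 2 (unadjusted p under 0.05) and -0.070 without mouse 3. Npy5r (chr8:66679965-66688128, minus strand), which is linked to feeding as well as mood, was at 7.001, 3.75 and 6.21 CPM in less anxious mice, between 4.83 and 5.33 CPM in the 4 anxious mice, and at 4.69, 4.79, 4.71 and 7.41 CPM in more anxious mice. Mice 10 and 3 were high and mouse 7 low, and the log2 difference was 0.036 (SE 0.20).

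Cckbr (chr7:105425731-105470898, plus strand), the main brain CCK receptor, was at 41.9, 59.6 and 37.4 CPM in less anxious, 49.9, 57.1, 55.1 and 45.02 CPM in anxious and 42.4, 64.1, 58.8 and 54.7 CPM in more anxious mice. Group means were 46.3 ± 11.7, 51.8 ± 5.42 and 55.0 ± 9.26 CPM (SD), but the less anxious mouse 7 was higher than 3 of the 4 more anxious mice. The log2 difference was 0.21 (SE 0.14, edgeR adjusted p = 0.741), moving between 0.096 without mouse 12 and 0.38 without mouse 7. Of the 11 edgeR fits without 1 of the mice, 1 had an unadjusted p under 0.05, that without mouse 2. The summed CPM of 7 glutamate neuron markers, 4 of which had an unadjusted p under 0.05 and were higher in more than in less anxious mice, ran from 2808 to 4219 in less anxious and from 3374 to 4085 in more anxious mice. Its part in the Cckbr values was not tested. Cckar (chr5:53697776-53707705, minus strand), better known from the gut and from vagal neurons, ranged from 0.182 to 1.50 CPM over the 11 mice, with no separation of groups.

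The somatostatin receptors, which slow neuronal firing, did not pass the test. Sstr2 (chr11:113619342-113626028, plus strand) was at 18.7, 34.4 and 16.2 CPM in less anxious, 25.4, 29.9, 28.1 and 19.1 CPM in anxious and 21.5, 24.7, 23.1 and 18.1 CPM in more anxious mice. Mouse 7 was the highest of all, and without it the log2 difference of -0.13 (SE 0.17) became 0.16. Sstr2 lies within the span of Slc39a11 on the opposite strand, with no exon bases in common. Sstr1 (chr12:58211772-58214444, plus strand) was at 6.81, 10.4 and 7.64 CPM in less anxious, 5.28, 5.72, 7.12 and 14.1 CPM in anxious and 7.27, 7.79, 8.31 and 5.02 CPM in more anxious mice. Its spread came largely from mouse 11, the highest, and the log2 difference was -0.22 (SE 0.34). Grpr (chrX:163513904-163549677, minus strand), a receptor of a subset of inhibitory neurons in the lateral amygdala, was between 0.0836 and 0.344 CPM.

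**Figure D2:**
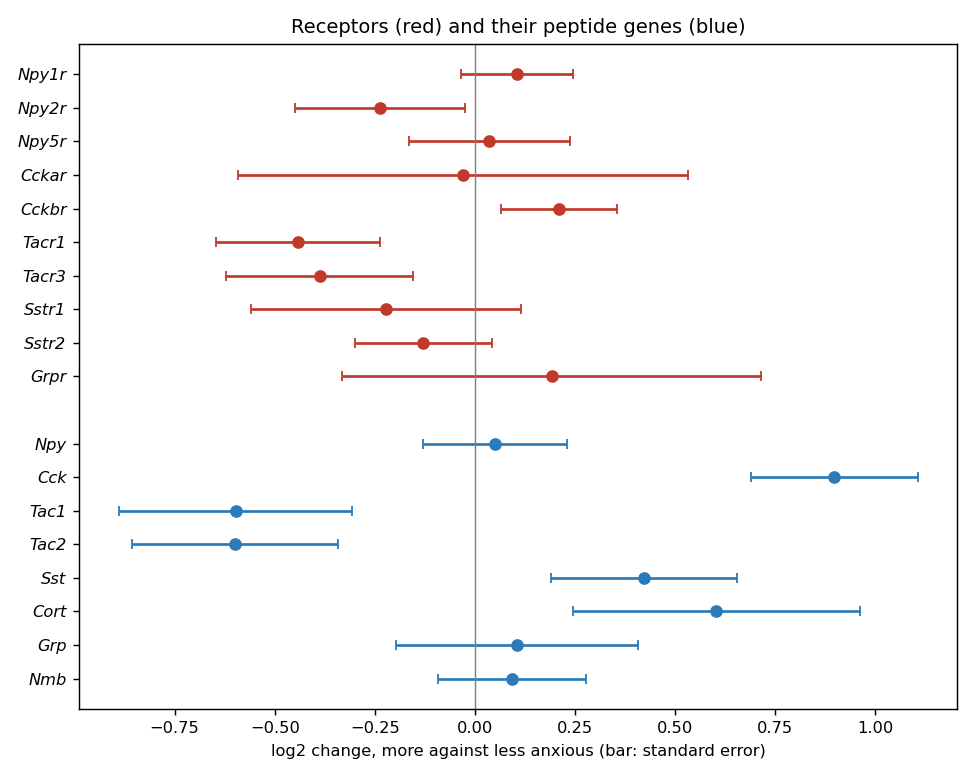
Fitted log2 difference between more and less anxious mice on the horizontal axis for the 10 receptors (red) and 8 of their peptide genes (blue), with standard errors as bars, from edgeR with 4 more and 3 less anxious mice. Receptors with a mean of at least 1 CPM lie within 0.44 of zero on the log2 scale, while Cck lies at 0.90.

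The genes of the peptides that act on these receptors were read beside them. Of 12 peptide genes, 9 passed the filter of 10 reads in total. Pyy had 0 reads in every mouse, and Ppy and Tac4 had at most 2. Cck, the precursor of cholecystokinin, was at 118, 154 and 99.0 CPM in less anxious, 148, 189, 182 and 154 CPM in anxious and 234, 177, 315 and 198 CPM in more anxious mice. All 4 more anxious mice were above all 3 less anxious mice. The log2 difference was 0.90 (SE 0.21, edgeR adjusted p = 0.202). DESeq2 called Cck (log2 difference 0.89, adjusted p = 0.00297), and the adjusted p over the alternatives ran up to 0.493. Tac2, the precursor of neurokinin B, was at 22.9, 18.6 and 9.97 CPM in less anxious and at 10.3, 10.6, 12.1 and 10.8 CPM in more anxious mice, with a log2 difference of -0.60 (SE 0.26, edgeR adjusted p = 0.537). Mouse 12 was the exception among the less anxious mice. Tac1, which encodes substance P and neurokinin A, had a log2 difference of -0.60 (SE 0.29, edgeR adjusted p = 0.615). Npy, Sst, Cort, Grp, Nmb and Gast had log2 differences of 0.049, 0.42, 0.60, 0.10, 0.093 and 0.39, none with an unadjusted p under 0.05.

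Other genes of the pathway were counted as whole lists. Of 7 further receptors of the same families that were tested, Sstr5 had the only unadjusted p under 0.05, with 2.74 to 3.15 CPM in less anxious and 0.585 to 2.44 CPM in more anxious mice (log2 difference -1.12, SE 0.37, edgeR adjusted p = 0.384). Of 25 receptors for other neuropeptides, 7 had a positive and 18 a negative value, and edgeR called 0 (median log2 difference -0.097). An unadjusted p under 0.05 was found for Npffr1 (-1.11, SE 0.36, adjusted p = 0.375), a receptor for neuropeptide FF, and Adcyap1r1 (-0.25, SE 0.11, adjusted p = 0.523), the PACAP receptor. Vipr2 and Trhr2 had one only across the 3 groups. Of 30 G proteins, effector enzymes, channels and arrestins, 15 were positive and 15 negative, with 0 called by edgeR. Unadjusted p-values under 0.05 were found for Gnai2, an inhibitory G protein subunit, at 0.997 on the log2 scale (SE 0.18, edgeR adjusted p = 0.103), and Arrb2 at 0.33. They were also found for Arrb1 at -0.35, Adcy5 at -0.39, Adcy9 at -0.42 and Itpr1 at -0.51. The study, with DESeq2's likelihood ratio test at an FDR under 0.05, placed GNAI2 among the increased genes of its opioid signaling pathway.

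The study correlated behavior measures with the top principal components of expression, while here each receptor was fitted on each measure. The measures were time and distance in the light side of the LD box and open-arm time in the EPM, each as a percentage. The others were total entries in the EPM and the box:zone ratio at 3, 5 and 10 min of the SIT. In the study, the box stands for direct and the zone for distant contact with a stranger mouse. Slopes are log2 changes per SD of a measure over 11 mice (10 at 3 min, since mouse 4 has no value), tested with edgeR. Over 10 receptors and 7 measures, 0 of 70 pairs were called by edgeR or by DESeq2, and the smallest adjusted p in edgeR was 0.637. DESeq2 gave no adjusted p for Grpr with total entries and with the ratio at 3 and 10 min. It gave none for Cckar with the ratio at 3 min, so these pairs could not be called there. Of the 70 pairs, 2 had an unadjusted p under 0.05, both with time in the light, for which the background was 3.56% of genes unadjusted, 0.00742% adjusted and 0.0435% in DESeq2. No receptor had one with distance in the light (background 5.84%), open-arm time (5.9%), total entries (7.06%) or the box:zone ratio at 3 min (7.62%), 5 min (6.52%) and 10 min (7.98%), apart from 1 in DESeq2 at 10 min. The background of adjusted calls for these measures in the same order was 0.0%, 0.0%, 0.0%, 0.015%, 0.0111% and 0.0223% in edgeR and 0.0753%, 0.125%, 0.13%, 0.47%, 0.125% and 0.322% in DESeq2.

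Cckar had a slope of 0.47 on time in the light (SE 0.19, edgeR adjusted p = 0.999). Mouse 6, a mouse labelled more anxious that spent 46.6% of its time in the light, the most of all mice, also had the highest Cckar value of 1.50 CPM, and mouse 9, with the least time (12.4%), had 0.319 CPM. The unadjusted edgeR p stayed under 0.05 in 9 of the 11 fits without 1 of the mice. Without mouse 6 the slope was 0.28, with an unadjusted p above 0.05. These values rest on 6 to 50 reads. Npy1r had a slope of -0.11 (SE 0.051, edgeR adjusted p = 0.999), and its p stayed under 0.05 in 3 of the 11 fits without 1 of the mice. Npy5r had its largest slope with the box:zone ratio at 10 min (0.16, SE 0.077, edgeR adjusted p = 0.637), where DESeq2 gave an unadjusted p under 0.05 (DESeq2 adjusted p = 0.458). For the 8 receptors with a mean of at least 1 CPM, no slope on any measure exceeded 0.21 in size.

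The peptide genes had an unadjusted p under 0.05 in 11 of 63 pairs with the measures (17.5%) and 0 called. Over all genes the share was 3.56% to 7.98%, depending on the measure. Grp and Cort had negative slopes on time in the light, distance in the light and total entries. These were -0.27, -0.28 and -0.26 for Grp and -0.28, -0.34 and -0.35 for Cort, with edgeR adjusted p from 0.602 to 0.999. Cck had slopes of -0.31 on distance in the light (edgeR adjusted p = 0.792) and -0.27 on open-arm time. Sst and Gast had one on total entries and Npy on the box:zone ratio at 10 min. Among the other receptors of these families it was 5 of 49 pairs (Brs3 on both light measures, Tacr2, Nmbr and Npy4r on 1 each), among receptors for other neuropeptides 14 of 175 (Galr2, Ntsr2, Adcyap1r1, Calcr, Mc3r, Mchr1, Npffr1, Ghsr, Trhr2, Npr1 and Npr3), and among G proteins and effectors 13 of 210 (Gnao1, Gna11, Gnb4, Gnb5, Adcy5, Adcy9, Plcb1, Plcb4, Itpr1 and Grk3). None of these was called by edgeR.

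Receptors were next compared with each other over the 11 mice, whatever their group. Of 45 pairs, 3 had a Pearson r of log2 CPM of at least 0.7 in size (6.67%, compared with 3.50% of all 126253995 pairs of genes at 1 CPM or more), and the median size of r was 0.31 against 0.26 for all pairs. These are descriptions over libraries that share a dissection protocol and a sequencing run. Tacr1 and Tacr3 had r = 0.76 and Spearman rho = 0.75, and r was 0.72 without mice 10 and 1, the farthest from the median of Tacr1. Tacr3 ranked 107 of 15890 genes by likeness to Tacr1. Cckbr and Sstr2 had r = 0.71 and rho = 0.71, which dropped to r = 0.50 without mice 12 and 3. Npy5r and Sstr2 ran in opposite directions with r = -0.79 and rho = -0.65, and r was -0.77 without mice 10 and 3. Only 1.11% of all gene pairs had an r of that size or more. Npy1r and Npy5r, which lie 9064 bp apart on opposite strands of chromosome 8, had r = 0.29 and rho = 0.12, and r was -0.028 without mice 11 and 10.

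**Figure D3:**
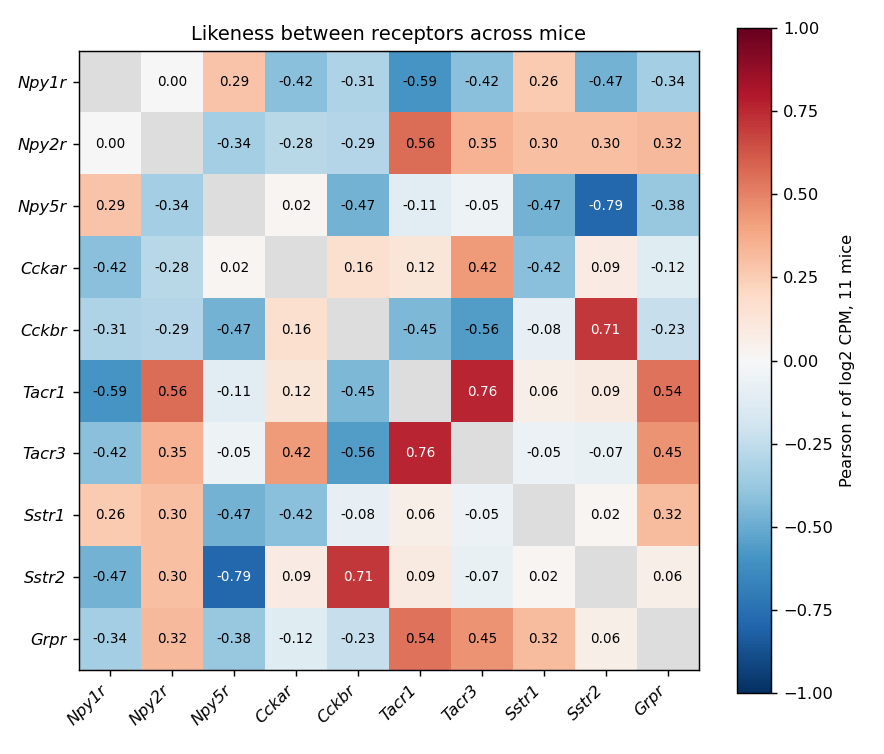
Pearson r of log2 CPM over 11 mice for each pair of receptors, from -1 (blue) to 1 (red), with receptors in the same order on both axes. Tacr1 with Tacr3 (0.76) and Cckbr with Sstr2 (0.71) are the highest, and Npy5r with Sstr2 (-0.79) is the lowest.

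Pairing each receptor with its own peptides gave 13 relations. Tac1, the substance P precursor, and Tacr3 had r = 0.88 (permutation p = 2e-05, the smallest that 100000 permutations can give) and rho = 0.94 (permutation p = 6e-05), and r was 0.93 without mice 2 and 12. Tac1 ranked 7 of 15890 genes by likeness to Tacr3. Tac1 was at 33.4, 33.3 and 56.6 CPM in less anxious, 39.5, 25.6, 25.7 and 26.4 CPM in anxious and 37.5, 30.1, 21.7 and 19.9 CPM in more anxious mice, so the anxious mouse 1 and the more anxious mouse 2 were high for both genes. Tac1 and Tacr1 had r = 0.74 (permutation p = 0.00704) and rho = 0.84 (permutation p = 0.00242), with r = 0.64 without mice 10 and 1. Of all gene pairs, 2.20% had an r of that size or more, against 0.117% for that of Tac1 and Tacr3. Tac2, the precursor of the peptide that NK3 prefers, had r = 0.13 with Tacr3 (permutation p = 0.694), rho = -0.13 (permutation p = 0.712) and r = 0.62 without mice 2 and 12.

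Npy and Npy5r had r = -0.83 (permutation p = 0.00242) and rho = -0.80 (permutation p = 0.00394), and r was -0.63 without mice 10 and 3. Npy was at 41.4, 67.8 and 46.4 CPM in less anxious, 61.4, 62.7, 54.8 and 41.5 CPM in anxious and 54.4, 66.0, 63.1 and 38.7 CPM in more anxious mice. Npy was lowest in mouse 10 and highest in mouse 7, where Npy5r was highest and lowest. Npy and Npy1r had r = -0.68 (permutation p = 0.0276) and rho = -0.55 (permutation p = 0.0810), and with r = -0.34 without mice 11 and 10 this relation rests on those mice. Cck and Cckbr had r = 0.56 (permutation p = 0.0726) and rho = 0.42 (permutation p = 0.209), with r = 0.067 without mice 12 and 3. The other 7 relations had r between -0.23 and 0.53 with permutation p-values of 0.0867 or more for r and 0.0695 or more for rho. Of all gene pairs, 0.548% had an r as large in size as that of Npy and Npy5r. The share was 4.46% for Npy and Npy1r and 11.9% for Cck and Cckbr. All permutation tests were two-sided and are unadjusted for the 13 relations. They do not account for how widely genes varied together over these mice.

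**Figure D4:**
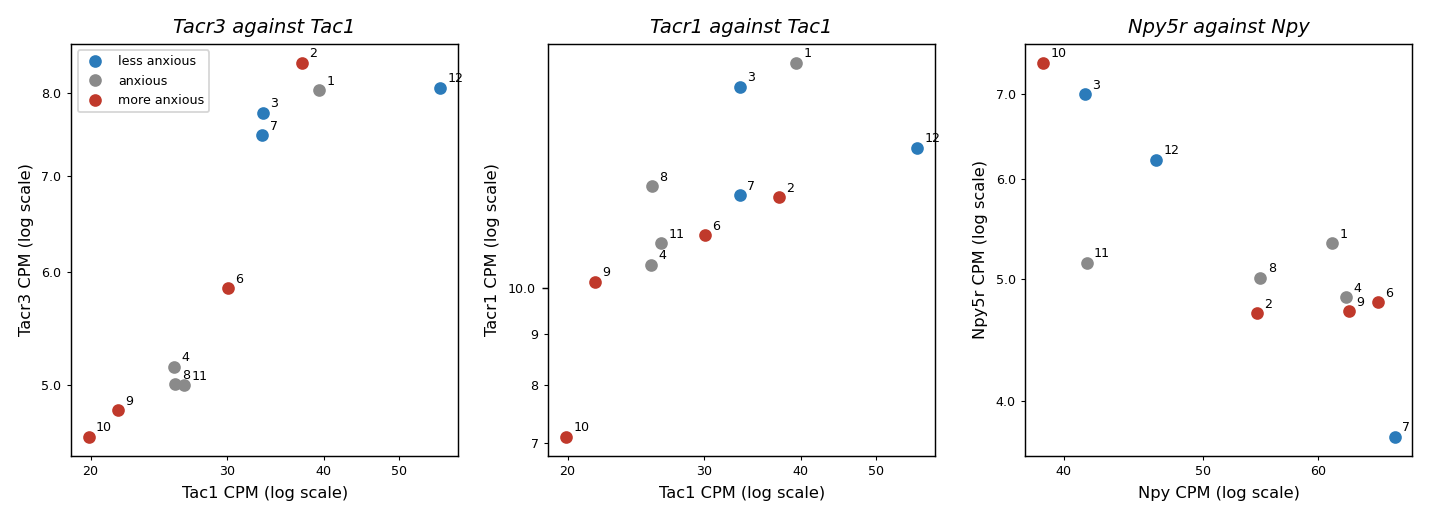
CPM of a receptor against CPM of a peptide gene on log axes, with 1 point per mouse, numbered, and colored by predicted anxiety state, for Tacr3 and Tacr1 against Tac1 and Npy5r against Npy. Tacr3 follows Tac1 across the groups (r = 0.88), and Npy5r is highest in mouse 10, where Npy is lowest.

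Markers of cell types and regions moved with several of these values. The summed CPM of 9 GABA neuron markers, between 785.6 and 1124 over the mice, had r = 0.82 with Tacr1 and 0.70 with Tacr3 over 11 mice, and astrocyte and choroid plexus marker sums had r = 0.69 and 0.66 with Tacr3. Cckbr had r = 0.84 with the sum of the glutamate neuron markers, Npy2r r = -0.74 with that of 4 basolateral amygdala markers (260.6 to 512.1 CPM) and Npy5r r = -0.67 with that of 8 central and medial amygdala markers (461.1 to 902.2 CPM), a list that holds the peptide genes Sst and Tac2. These were picked as the largest in size over all receptors and marker sums, with no background for such values. Others were little smaller. Cckar had r = 0.65 with striatal and 0.62 with oligodendrocyte markers, and Npy1r r = -0.63 with microglia markers. Npy2r had r = -0.63 with striatal and -0.62 with oligodendrocyte markers. The part of the marker differences between mice in the receptor values was not tested. Striatal neuron markers ran from 178.9 to 673.6 CPM, with 7 of 7 negative between more and less anxious mice and 0 at an unadjusted p under 0.05. The 5 markers each of oligodendrocytes, astrocytes, microglia and endothelial cells were negative without exception between more and less anxious mice, with 1, 1, 1 and 3 of 5 at an unadjusted p under 0.05 and 0 called by edgeR. No gene of the basolateral or the central and medial amygdala lists was at 0 over the mice. The same held for the striatal, hypothalamus and thalamus, choroid plexus and pituitary lists. Hypothalamus and thalamus markers ran from 28.6 to 37.9 CPM in less anxious and from 30.9 to 87.3 CPM in more anxious mice. Of these markers, 7 of 8 were positive and 0 had an unadjusted p under 0.05, and their sum had r = 0.55 with Npy2r. Pituitary hormone genes summed to 2.16 to 3.70 CPM in less anxious and 1.20 to 1.71 CPM in more anxious mice, and reached 56.5 CPM in the anxious mouse 4. Between more and less anxious mice their median log2 difference was -2.91, with 3 of 5 negative and 0 at an unadjusted p under 0.05. Across the 3 groups, 5 of 5 had an unadjusted p under 0.05 and 0 were called by edgeR.

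By Pearson r over the 11 mice, the 3 genes most like each receptor were the following. For Npy2r they were Vit, Frmpd3 and Trhr, the thyrotropin-releasing hormone receptor (r = 0.96, 0.96 and 0.95), and r remained 0.93, 0.92 and 0.88 without mice 10 and 9. For Npy5r they were Slc17a6, a vesicular glutamate transporter, Fgf12 and Zfp119a (r = 0.90, 0.90 and 0.89). Slc17a6 belongs to the glutamate neuron markers, but their summed CPM had r = -0.44 with Npy5r. For Cckbr they were Rtn4r, the Nogo receptor, its partner Lingo1, and Cox10 (r = 0.93, 0.93 and 0.93). Tacr1 was most like Heph, Ngb and Tmx1 (r = 0.94, 0.91 and 0.90) and Tacr3 most like Gm21962, Arg2 and Fgf1 (r = 0.93, 0.92 and 0.91). For Npy1r the nearest were Col13a1, Ercc1 and Cxadr (r = 0.86, 0.86 and 0.84), the weakest likeness among the 10, and for Sstr2 Zfp710, Chst1 and Rasl11a (r = 0.92, 0.92 and 0.91). Sstr1 was most like Rapgef5, Slc39a11 and Pcdha9 (r = 0.90, 0.90 and 0.88), with mouse 11 high, and r fell to 0.66 for Pcdha9 without mice 11 and 10. Cckar (Ptprm, Ptprt and Commd3) and Grpr (Cpeb3 and the pseudogenes Gm14536 and Gm15027) had r of 0.89 to 0.90, on few reads. With 11 mice and 15890 genes, values of this size are found for every receptor.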

How the data were processed

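Amygdala mRNA of 12 mice was sequenced with single-end reads of 75 bp in a single run, trimmed with cutadapt where needed, quantified with Salmon and summed to genes with tximport by the authors; the mm10 build was used for alignment. The authors deposited estimated counts (expected counts), here whole numbers without normalization, for 47729 genes. Tool versions, annotation release and the strand setting are not given in the sources used here. GENCODE M21 gave names and coordinates for 47310 genes, and promoters came from RefSeq (GRCm38.p6). Python 3.11.15, R 4.3.3 and edgeR 4.0.16 (robust quasi-likelihood F-test, TMM factors) were used, for genes whose reads summed to 10 or more in the 11 mice, with the Benjamini-Hochberg method over all genes tested. DESeq2 1.42.0 was the alternative test. Group models held the PC1 score, and behavior measures were scaled to an SD of 1. Likeness used log2 CPM with a prior count of 2 and genes with a mean of at least 1 CPM. The edgeR step was tested on simulated data without the PC1 score, with differences larger than those of the receptors and only in well-counted genes. That test does not bear on small differences, on genes with few reads such as Grpr and Cckar, on DESeq2 or on likeness. Replicates are separate mice, and no litter, cage or dissection day is named for them.

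The named genes are the 10 receptors, the peptide genes, pathway genes with an unadjusted p under 0.05, and the 3 genes most like each receptor. The rule that picks the receptors uses symbols alone, but the receptors and all lists were chosen with earlier results of these data known. Galr3 of the lists had no row.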

Additional observations from a re-analysis of the deposited data

Results flagged for a closer look

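In groups of 4 mice, receptors and their peptides were checked for a mouse far from the others by Dixon's criterion, under which the gap to the nearest mouse exceeds 0.829 of the group's range. Of 36 groups checked, 3 were picked out, and chance picks out about 1 in 20. Npy5r was at 7.41 CPM in mouse 10 of the more anxious group, against 4.69 to 4.79 in the others. Tacr3 was at 8.03 CPM in mouse 1 of the anxious group, against 5.00 to 5.15 CPM. Tac1 was at 39.5 CPM in the same mouse 1, against 25.6 to 26.4 CPM, so Tacr3 and Tac1 stood out in the same animal.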

How the results depend on the processing

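No receptor was called in any of 160 alternative fits of 9 comparisons (DESeq2, other size factors, other count filters, the covariate left out or added, robust estimates off, groups as ordered numbers, ranks of a measure, mouse 5 included and each mouse left out), and the smallest adjusted p among them was 0.304. Over all genes, edgeR called 0 to 12 per comparison as reported and up to 25 under an alternative (more against less anxious with no count filter). DESeq2 called 15 to 300, at most 0.869% of the genes with a read, so 0 of 10 is what such a background gives. Cckar or Grpr had no adjusted p in some DESeq2 fits and could not be called there. The direction of small differences between more and less anxious mice was not stable. Without the PC1 covariate Npy5r was at -0.065 and Cckar at 0.14. With single mice left out, Npy5r ranged from -0.21 to 0.17, Cckar from -0.28 to 0.30, Sstr1 from -0.36 to 0.080 and Sstr2 from -0.30 to 0.16 (both positive only without mouse 7), and Grpr from -0.018 to 0.47, while Tacr1, Tacr3, Npy1r, Npy2r and Cckbr kept their sign. Of the 30 genes named as most alike, 11 were among the 10 most alike by Spearman rho. The cause was not tested. No paired analysis was possible because the groups share no mouse numbers in the labels. With 3 or 4 mice per group and 3 to 50 reads for Grpr and Cckar, only large differences in these 2 genes could be detected.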
